A study of Mus musculus with 8 samples.

Results

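The complement and coagulation factors of the liver were examined here as a list of 44 gene symbols, 22 of complement and 22 of coagulation and fibrinolysis. Members were found by the gene symbol that the array's annotation gives to a transcript cluster, which is the array's unit for a gene, and no filter on signal was set. Of the 44 symbols, 41 matched, 20 of complement and 21 of coagulation, on 43 of the 23410 clusters that carry a symbol. C3, Cfd and Cpb2 were not analysed here. Klkb1 was measured only on a cluster that also names Cyp4v3, so its values may belong to either gene.

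Livers came from 40 male C57Bl/6J mice, whose genotype is given as no more than the strain and whose age is not stated. The 4 groups of 10 mice ate a low-fat diet with 13% of calories from fat (LFD) or a high-fat diet with 42% (HFD), and drank deionized water that either was plain or (LFD+As and HFD+As) had sodium arsenite added to give 3 mg of inorganic arsenic in each litre. Exposure lasted 10 weeks per the protocols and 90 days per the source label. RNA of 5 mice was pooled for each array, which gave 2 pools per group (replicates 1 and 2), so that every error below is a spread between pools and not between mice.

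Complement is a chain of plasma proteases that is started by antibody-bound C1q, by mannose-binding lectins or by the alternative pathway, and that ends in a pore built from C5 to C9 in the membrane of a target. Coagulation is a second chain of plasma proteases, which ends when thrombin cuts fibrinogen to fibrin, and plasmin later dissolves the clot. Hepatocytes make most of these proteins and secrete them into blood, while C1q comes chiefly from macrophages, and several of the genes respond to interleukin-6 in the acute phase.

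For each of the 3 fibrinogen genes both HFD pools lay above all other pools. That also held for other members, among them C1qc, Cfb, Cfp and C4bp, whose promoters are not shown. The share of all clusters with this pattern was not computed. Both HFD pools lay above both LFD pools for 17.2% of all clusters. Both HFD+As pools lay below both HFD pools for 29.5%. Shown are the promoters of the fibrinogen genes, and that of F5 because it was the member that passed the test. Each is the stretch of 250 bases before the gene's start from RefSeq, build GRCm38.p6, written 5′ to 3′ on the gene's own strand. Capitals mark matches on either strand to 5 motifs. The type II interleukin-6 element was searched as CTGGGAA. The site of STAT factors, which carry the interleukin-6 signal, was searched as TTCNNNGAA and that of C/EBP factors as TTNNGNAA. Only a partial site of the hepatocyte factor HNF1 was searched, as GTTAAT, and the TATA box of the core promoter as TATAAA.
Fga: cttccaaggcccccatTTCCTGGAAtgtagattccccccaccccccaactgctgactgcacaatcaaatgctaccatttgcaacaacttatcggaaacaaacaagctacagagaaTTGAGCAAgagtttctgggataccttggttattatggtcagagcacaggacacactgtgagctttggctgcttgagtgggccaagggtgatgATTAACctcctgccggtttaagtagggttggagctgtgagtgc
Fgb: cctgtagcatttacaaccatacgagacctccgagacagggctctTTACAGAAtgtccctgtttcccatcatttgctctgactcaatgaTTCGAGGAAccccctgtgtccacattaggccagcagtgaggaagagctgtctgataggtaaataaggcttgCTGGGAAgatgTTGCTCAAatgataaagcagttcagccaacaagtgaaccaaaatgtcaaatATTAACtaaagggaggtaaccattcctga
Fgg: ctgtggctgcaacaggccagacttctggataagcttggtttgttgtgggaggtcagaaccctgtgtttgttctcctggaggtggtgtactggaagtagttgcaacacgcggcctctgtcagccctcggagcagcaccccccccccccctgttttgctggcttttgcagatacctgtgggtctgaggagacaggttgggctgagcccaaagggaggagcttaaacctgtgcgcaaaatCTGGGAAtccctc
F5: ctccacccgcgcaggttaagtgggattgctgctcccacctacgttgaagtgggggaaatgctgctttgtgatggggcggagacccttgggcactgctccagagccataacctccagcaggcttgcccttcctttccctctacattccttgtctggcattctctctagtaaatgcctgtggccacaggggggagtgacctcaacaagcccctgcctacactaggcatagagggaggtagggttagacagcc
They lie at chr3:83025903-83026152 (Fga, plus strand), chr3:83049864-83050113 (Fgb, minus strand), chr3:83007474-83007723 (Fgg, plus strand) and chr1:164151585-164151834 (F5, plus strand). The Fgb window held the interleukin-6 element 91 to 85 bases before the start, a STAT match at 162 to 154, C/EBP matches at 206 to 199 and 80 to 73, and a partial HNF1 site at 29 to 24. In Fga a STAT match stood at 234 to 226, a C/EBP match at 135 to 128 and a partial HNF1 site at 43 to 38. Fgg had the interleukin-6 element at 13 to 7, and the F5 window had none of the 5 motifs. Promoters were listed for 30 members (31 windows). The partial HNF1 site occurred in 12 of these 31 windows (38.7%) and in 6.43% of all 32851 windows of the same length. For the other motifs these shares were 16.1% and 9.1% (interleukin-6 element), 22.6% and 7.02% (STAT), 41.9% and 36.8% (C/EBP), and 9.68% and 12.4% (TATA box). Matches are letters only and say nothing about binding.

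Signals are log2 values as deposited, and differences between groups are in log2 units with a standard error (SE) from limma, fitted to all 8 arrays and adjusted by Benjamini-Hochberg over all 23410 clusters. Arrays correlated across clusters at r between 0.974 and 0.991. The deviations of an array followed the genomic span of the genes (first to last base, introns included) with rank correlations between -0.35 and 0.30, negative in both HFD+As pools (-0.35 and -0.27). Of 12 hepatocyte markers 11 were measured, and their mean signal lay between 13.58 and 13.72 in all 8 pools. Single markers differed by -0.39 to 0.18 in HFD+As against LFD, with 0 called. In that comparison all pools were lower for 6 markers and all higher for 2, beside 29.1% and 16.3% of all clusters. Levels of different genes cannot be compared on these arrays, since every probe set has its own response.

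Across the 41 members 1 call was made in 6 comparisons, and that was F5, lower in HFD+As than in LFD. In that comparison 4.57% of all clusters were called (1.94% higher and 2.64% lower), so 1 of 41 members is near the background. That share itself rests on single arrays. It was 0% without LFD replicate 1 or HFD+As replicate 1, 0.0128% without LFD replicate 2 or HFD+As replicate 2 and 0.427% without either LFD+As array. The group mean of HFD+As was below that of HFD for 39 members and below that of LFD for 33. In bulk liver RNA, fewer cells of a type and less RNA per cell cannot be told apart.

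**Figure D1:**
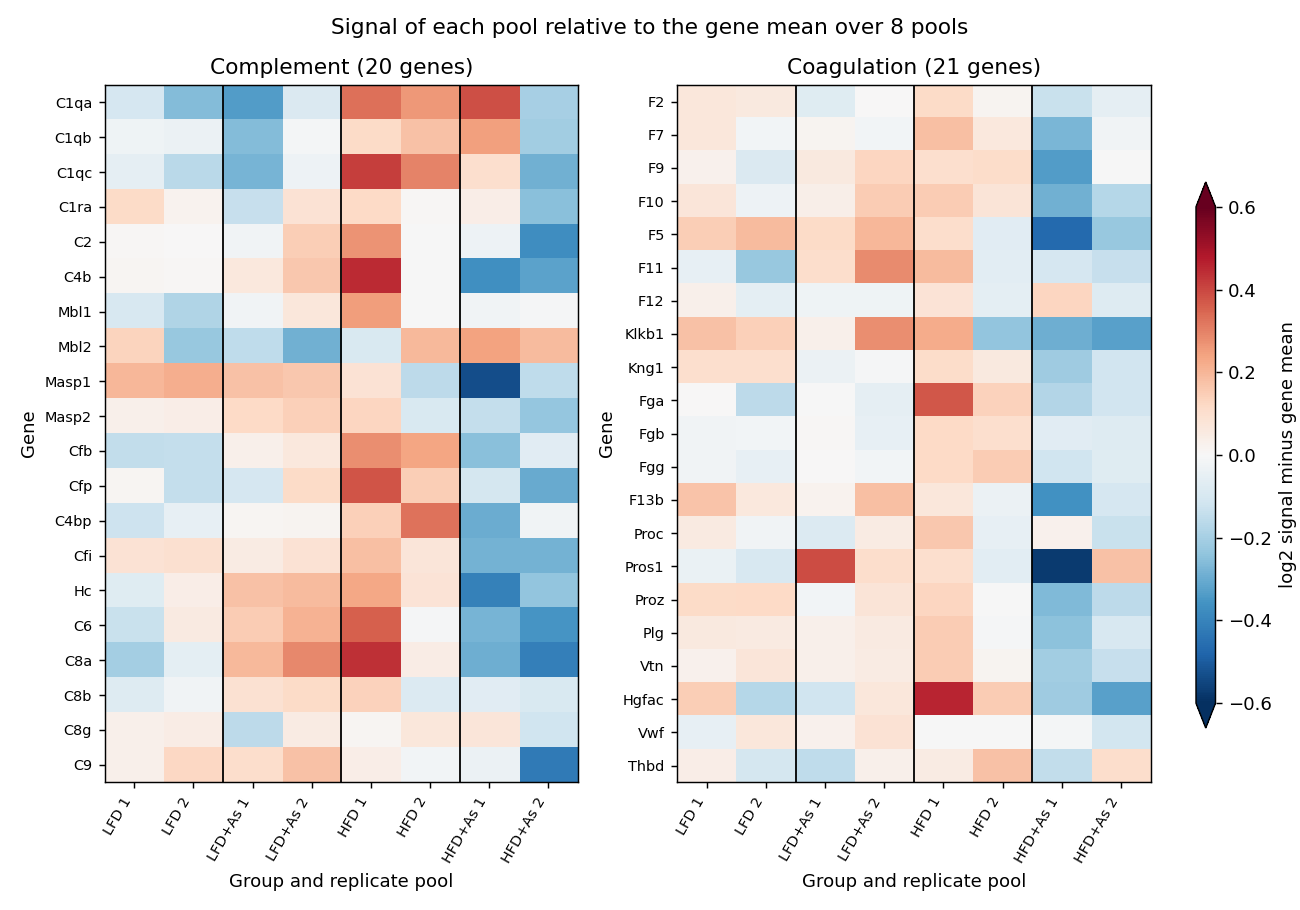
Signal of each measured member in each of the 8 pools, as log2 signal minus the gene's mean over all pools (colour), with 20 complement genes at the left and 21 coagulation genes at the right. The HFD+As columns are blue (below the mean) for most genes of both systems, while C1qa, C1qb and Mbl2 are red in HFD+As replicate 1 and Pros1 differs in colour between the HFD+As pools.

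The C1q chains form the recognition unit of the classical pathway. C1qc gave 9.84 and 9.73 with LFD, 9.61 and 9.86 with LFD+As, 10.31 and 10.19 with HFD and 9.99 and 9.60 with HFD+As. Both HFD pools were above all other pools for this gene, and the HFD difference from LFD was 0.46 (SE 0.15, adjusted p = 0.55). C1qa gave 8.79 and 8.63 with LFD, 8.56 and 8.81 with LFD+As, 9.23 and 9.16 with HFD and 9.28 and 8.69 with HFD+As. The HFD pools again lay above both LFD pools, at 0.48 (SE 0.18, adjusted p = 0.612), but HFD+As replicate 1 was the highest of all and its partner pool was near LFD. For C1qb, the remaining chain, the difference was 0.17 in HFD and 0.048 in HFD+As, both against LFD. HFD+As stood below HFD for all 3 chains, at -0.20, -0.13 and -0.45 for C1qa, C1qb and C1qc.

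Markers of macrophages, the main source of C1q, differed between the pools as well. The mean signal of 14 measured macrophage markers was 8.872 and 8.733 with LFD, 8.668 and 8.889 with LFD+As, 9.11 and 8.997 with HFD and 8.81 and 8.637 with HFD+As. Of these 14 genes, 11 were positive in HFD against LFD (median 0.28, 0 called by limma, and 5 with an unadjusted p under 0.05) and 11 were negative in HFD+As against HFD (median -0.35, 0 called, 8 at an unadjusted p under 0.05). In HFD+As against LFD 8 of the 14 were negative (median -0.13), with all pools lower for 6 and all higher for 2. Over all clusters the shares were 29.1% and 16.3%. In that comparison 1.94% of all clusters were called higher. The scavenger receptor gene Marco was the 1 marker called, higher at 0.54 (SE 0.11, adjusted p = 0.0359), and its call was lost without any 1 array of LFD, LFD+As or HFD+As. The part of the macrophage markers in the C1q values was not tested.

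C4b, C2 and C1ra encode the substrates and a protease of the classical pathway. C4b gave 12.09 and 12.09 with LFD, 12.14 and 12.24 with LFD+As, 12.53 and 12.08 with HFD and 11.71 and 11.76 with HFD+As. Both HFD+As pools were below the other 6, and HFD replicate 1 was the highest. Against HFD the difference was -0.57 (SE 0.15, adjusted p = 0.163) and against LFD it was -0.35 (SE 0.15, adjusted p = 0.212). Without HFD replicate 1 the HFD+As difference from HFD was -0.34. C4b has a near-identical copy, C4a, and whether its probes also bind C4a transcripts is unknown. C2, which is cut together with C4, had -0.33 against HFD (adjusted p = 0.259). C1ra had -0.17 in HFD+As against LFD, and the cluster shared by C1rb and C1ra had -0.20.

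In the lectin pathway both proteases were negative and both lectins positive in HFD+As against LFD. Masp1, a protease of the mannose-binding lectin complex, gave 11.92 and 11.94 with LFD, 11.90 and 11.89 with LFD+As, 11.81 and 11.56 with HFD and 11.19 and 11.57 with HFD+As. Every LFD and LFD+As pool lay above every HFD and HFD+As pool, and HFD+As replicate 1 was the lowest. The difference in HFD+As was -0.55 (SE 0.14, adjusted p = 0.0643) against LFD and -0.51 (SE 0.14, adjusted p = 0.109) against LFD+As. Masp2, which cleaves C4 and C2, gave 11.87 and 11.88 with LFD, 11.96 and 11.98 with LFD+As, 11.97 and 11.75 with HFD and 11.70 and 11.61 with HFD+As. Its HFD+As pools were the lowest of the 8, at -0.32 (SE 0.11, adjusted p = 0.174) against LFD+As. Mbl2, a mannose-binding lectin, gave 10.45 and 10.09 with LFD, 10.16 and 10.03 with LFD+As, 10.23 and 10.51 with HFD and 10.56 and 10.51 with HFD+As. Both HFD+As pools were above the LFD+As pools and above LFD, at 0.44 (SE 0.15, adjusted p = 0.156) against LFD+As, while LFD overlapped LFD+As. Mbl1, the other lectin, had 0.26 in HFD and 0.12 in HFD+As against LFD, with no overlap of pools in either.

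Cfb and Cfp belong to the alternative pathway. Cfb, the factor B that carries the protease of the alternative convertase, gave 12.21 and 12.21 with LFD, 12.38 and 12.42 with LFD+As, 12.63 and 12.59 with HFD and 12.10 and 12.29 with HFD+As. The LFD pools were the same to the second decimal, both LFD+As pools lay above them and both HFD pools higher still, while HFD+As overlapped LFD. HFD stood at 0.40 (SE 0.11, adjusted p = 0.484) against LFD, and HFD+As at -0.41 (SE 0.11, adjusted p = 0.163) against HFD. Cfp, properdin, which stabilises that convertase, gave 9.70 and 9.54 with LFD, 9.59 and 9.80 with LFD+As, 10.06 and 9.83 with HFD and 9.58 and 9.38 with HFD+As. HFD was highest here too, and HFD+As against HFD was -0.47 (SE 0.14, adjusted p = 0.172).

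Both complement inhibitors were lower in both HFD+As pools than in both HFD pools, as were 29.5% of all clusters. C4bp, which binds C4b and helps factor I to cut it, gave 12.50 and 12.58 with LFD, 12.63 and 12.64 with LFD+As, 12.77 and 12.95 with HFD and 12.33 and 12.60 with HFD+As. Its HFD pools were above all others, and HFD+As replicate 1 was the lowest, with a difference of -0.40 (SE 0.13, adjusted p = 0.181) from HFD. Cfi, the factor I protease, gave 12.58 and 12.59 with LFD, 12.55 and 12.58 with LFD+As, 12.68 and 12.57 with HFD and 12.22 and 12.21 with HFD+As. The 6 pools of the other groups lay between 12.55 and 12.68, and both HFD+As pools lay below them. The HFD+As difference was -0.37 (SE 0.10, adjusted p = 0.0738) against LFD and -0.41 (SE 0.10, adjusted p = 0.161) against HFD.

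In the terminal pathway, both HFD+As pools were the lowest of the 8 for Hc, C6, C8a and C9. The share of this pattern over all clusters was not computed. Both HFD+As pools lay below both pools of LFD, HFD and LFD+As for 29.1%, 29.5% and 29.4% of all clusters. Among genes with a mean signal in the members' interquartile range these shares were 50.2%, 47.9% and 54.1%. C8a, the alpha chain of C8 in the membrane attack complex, gave 11.84 and 11.99 with LFD, 12.24 and 12.34 with LFD+As, 12.49 and 12.09 with HFD and 11.76 and 11.64 with HFD+As. LFD+As and HFD pools were above LFD, and HFD+As pools were below it, at -0.22 (SE 0.14, adjusted p = 0.457). The differences were 0.37 (SE 0.14, adjusted p = 1) for LFD+As against LFD, 0.37 (SE 0.14, adjusted p = 0.613) for HFD against LFD and -0.59 (SE 0.14, adjusted p = 0.157) for HFD+As against HFD. Hc, the mouse gene of C5, gave 12.58 and 12.69 with LFD, 12.83 and 12.84 with LFD+As, 12.88 and 12.73 with HFD and 12.25 and 12.42 with HFD+As. HFD+As was the lowest group, at -0.50 (SE 0.12, adjusted p = 0.0845) against LFD+As and -0.48 (SE 0.12, adjusted p = 0.157) against HFD.

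C6, which joins C5b to start the pore, gave 11.56 and 11.75 with LFD, 11.85 and 11.91 with LFD+As, 12.06 and 11.69 with HFD and 11.42 and 11.35 with HFD+As. Its HFD+As pools stood at -0.50 (SE 0.14, adjusted p = 0.107) against LFD+As. C9, which forms the ring of the pore, had -0.37 in the same comparison, and its HFD+As pools were 12.59 and 12.20. For the other C8 chains, C8b had -0.11 against HFD and C8g -0.064, and all 8 C8g pools lay between 13.08 and 13.31. Whether the 3 C8 chains differed from each other in their response was not tested.

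**Figure D2:**
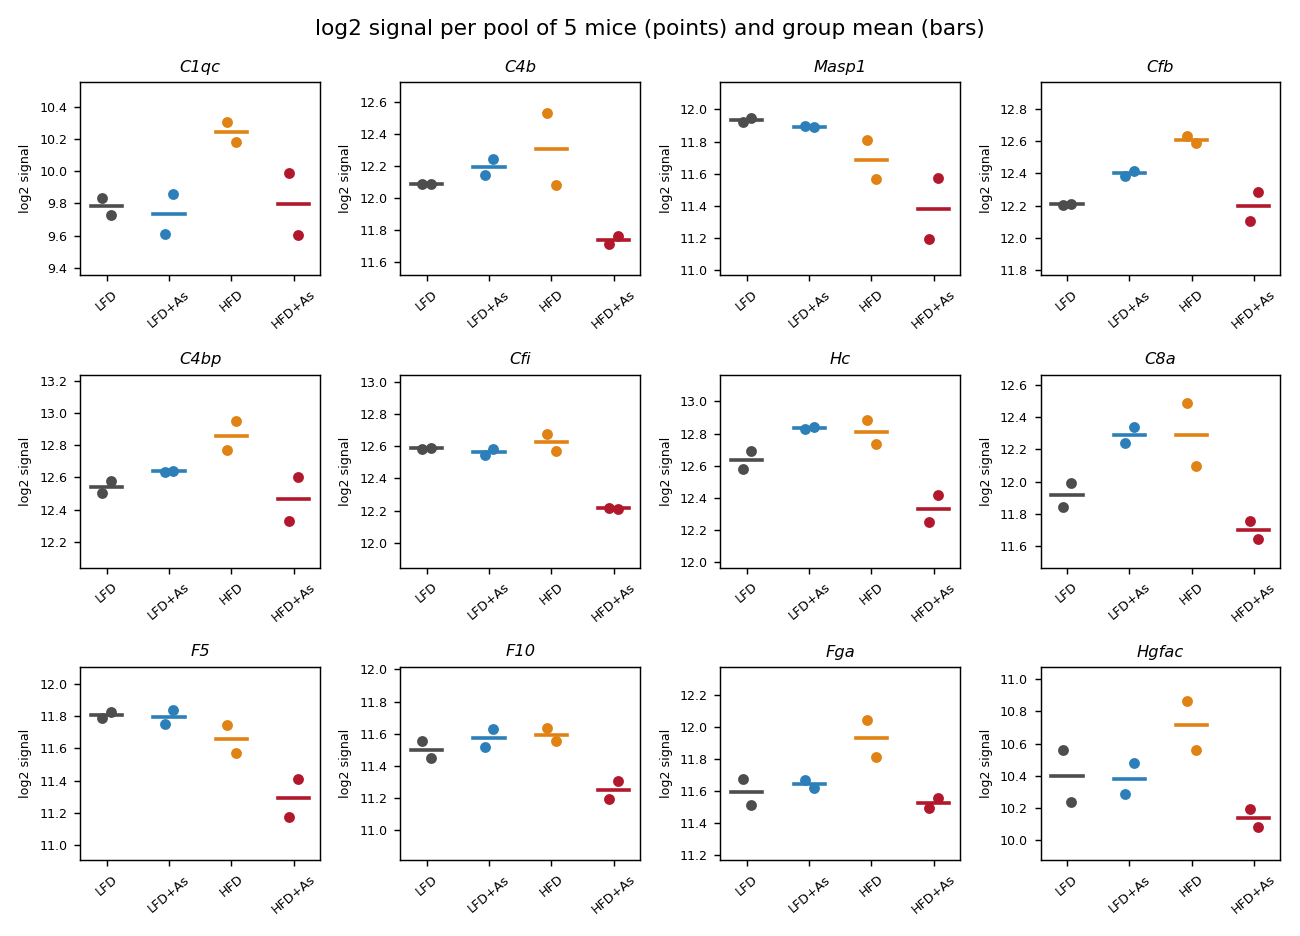
log2 signal of 12 members in each pool of 5 mice (points) with the mean of each group (bars), all panels spanning 1.2 log2 units. In C4b, Cfi, Hc, C8a, F5, F10 and Hgfac both HFD+As points lie below the points of every other group, and C1qc, Cfb and Fga have their highest points in HFD. Shares of these patterns over all clusters were not computed.

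Among the vitamin K-dependent proteases, signals in HFD+As were below those in HFD in both pools for all 4 genes. This held for 29.5% of all clusters, and for 47.9% of genes with a mean signal in the members' interquartile range. F10, whose product converts prothrombin to thrombin, gave 11.55 and 11.45 with LFD, 11.52 and 11.63 with LFD+As, 11.63 and 11.56 with HFD and 11.19 and 11.31 with HFD+As. The HFD+As pools were the lowest, at -0.34 (SE 0.11, adjusted p = 0.181) against HFD. F7, the partner of tissue factor that begins coagulation, gave 10.27 and 10.19 with LFD, 10.22 and 10.19 with LFD+As, 10.38 and 10.27 with HFD and 9.93 and 10.18 with HFD+As, and HFD+As against HFD was -0.27 (SE 0.12, adjusted p = 0.265). F9, the factor lacking in haemophilia B, gave 11.88 and 11.77 with LFD, 11.91 and 11.98 with LFD+As, 11.96 and 11.97 with HFD and 11.52 and 11.85 with HFD+As, with HFD+As replicate 1 the lowest of the 8 and a difference of -0.28 (SE 0.13, adjusted p = 0.283) from HFD. F2, prothrombin, had -0.16 from HFD.

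F5 was the member that passed the test. It encodes factor V, the cofactor with which factor Xa activates prothrombin. Its signals were 11.79 and 11.83 with LFD, 11.75 and 11.84 with LFD+As, 11.74 and 11.57 with HFD and 11.17 and 11.41 with HFD+As. All LFD and LFD+As pools lay above all HFD pools, and all HFD pools above all HFD+As pools. F5 fell by 0.52 log2 units in HFD+As relative to LFD (limma SE 0.12, adjusted p = 0.0485, 2 pools in each group), a signal 1.43-fold lower. Against LFD+As it stood at -0.50 (SE 0.12, adjusted p = 0.0901) and against HFD at -0.37 (SE 0.12, adjusted p = 0.188). The call was lost when any 1 of the 8 arrays was left out (adjusted p from 0.0541 to 0.253, differences between -0.63 and -0.40), and with the span trend removed (-0.37, adjusted p = 0.111), with median scaling (-0.47, adjusted p = 0.0794) and over all 35556 clusters (adjusted p = 0.117).

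The contact system starts coagulation at surfaces. F11 had 0.33 in LFD+As against LFD, with pools of 10.12 and 10.31 over 9.97 and 9.79, and 0.017 in HFD+As against LFD. F12, the contact factor XII, lay between 11.47 and 11.68 in all 8 pools and was one of the 2 members with a positive difference between HFD+As and HFD (0.016, beside Mbl2 at 0.17). Kng1, the kininogen that releases bradykinin, had -0.27 in HFD+As against LFD (adjusted p = 0.179). The cluster of Klkb1 and Cyp4v3 had -0.47 (adjusted p = 0.127), with HFD pools of 12.31 and 11.85 that lay far apart.

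Fibrinogen consists of 3 chains, whose genes sit side by side in the cluster on chromosome 3 shown above. Fga gave 11.68 and 11.52 with LFD, 11.67 and 11.62 with LFD+As, 12.04 and 11.81 with HFD and 11.50 and 11.56 with HFD+As. HFD was above the other groups, at 0.33 (SE 0.12, adjusted p = 0.586) against LFD, and HFD+As was below HFD, at -0.40 (SE 0.12, adjusted p = 0.172). The other Fga cluster on the array gave 0.49 and -0.37 in these comparisons, and for HFD+As against LFD it had 0.12 where the cluster used here had -0.069. Fgg gave 14.06 and 14.03 with LFD, 14.08 and 14.06 with LFD+As, 14.20 and 14.23 with HFD and 13.96 and 14.01 with HFD+As, with the same order of groups in a narrower range. HFD+As against HFD was -0.23 (SE 0.10, adjusted p = 0.253). Fgb had 0.13 in HFD against LFD and -0.18 in HFD+As against HFD. In all 3 chains both HFD pools lay above the pools of every other group, a pattern whose share over all clusters was not computed.

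F13b, the carrier chain of the fibrin-crosslinking factor XIII, gave 11.48 and 11.37 with LFD, 11.33 and 11.48 with LFD+As, 11.37 and 11.27 with HFD and 10.94 and 11.21 with HFD+As. HFD overlapped LFD+As, and HFD+As was the lowest group, at -0.35 (SE 0.13, adjusted p = 0.156) against LFD.

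The vitamin K-dependent anticoagulants included no call. Proz, protein Z, a cofactor in the inhibition of factor Xa, gave 11.39 and 11.40 with LFD, 11.26 and 11.36 with LFD+As, 11.40 and 11.27 with HFD and 11.01 and 11.12 with HFD+As. Both HFD+As pools were the lowest, at -0.33 (SE 0.11, adjusted p = 0.126) against LFD. Pros1, protein S, gave 9.82 and 9.76 with LFD, 10.25 and 9.96 with LFD+As, 9.96 and 9.79 with HFD and 9.29 and 10.03 with HFD+As. HFD+As replicate 1 was the lowest of the 8 pools and replicate 2 lay above both LFD pools, and the difference from LFD+As was -0.45 (SE 0.21, adjusted p = 0.314). Proc, protein C, gave 11.95 and 11.88 with LFD, 11.82 and 11.95 with LFD+As, 12.07 and 11.85 with HFD and 11.93 and 11.77 with HFD+As, and its groups overlapped in every comparison, with a difference of -0.11 between HFD+As and HFD.

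Plg, which encodes the precursor of plasmin, gave 13.69 and 13.68 with LFD, 13.66 and 13.69 with LFD+As, 13.79 and 13.63 with HFD and 13.39 and 13.54 with HFD+As. HFD+As was lowest in both pools, at -0.24 (SE 0.11, adjusted p = 0.275) against HFD. Vtn, vitronectin, an adhesive plasma protein that also restrains the terminal complement complex, gave 13.92 and 13.96 with LFD, 13.92 and 13.94 with LFD+As, 14.04 and 13.91 with HFD and 13.68 and 13.75 with HFD+As, and HFD+As stood at -0.26 (SE 0.11, adjusted p = 0.236) against HFD. Hgfac, the activator of hepatocyte growth factor, gave 10.56 and 10.24 with LFD, 10.29 and 10.48 with LFD+As, 10.87 and 10.56 with HFD and 10.20 and 10.08 with HFD+As. HFD replicate 1 was the highest and HFD+As the lowest, at -0.57 (SE 0.15, adjusted p = 0.164) against HFD. Thbd, thrombomodulin of the endothelium, gave 7.35 and 7.21 with LFD, 7.16 and 7.35 with LFD+As, 7.36 and 7.49 with HFD and 7.17 and 7.42 with HFD+As, with overlap between HFD+As and each other group. Vwf, the other endothelial member, lay between 7.50 and 7.69 in all 8 pools. Of 10 sinusoidal endothelial markers 9 were negative and 3 were called lower in HFD+As against LFD, beside 2.64% of all clusters. The 3 were Stab2 at -0.91, Tek at -0.72 and Kdr at -0.69, calls that were lost without any 1 array of LFD, LFD+As or HFD+As. With the span trend removed, the call of Kdr was lost as well (limma adjusted p = 0.0546), while those of Stab2 and Tek held. Without that removal, Vwf stood at -0.07 and Thbd at 0.012 in the same comparison. The mean signal of these 10 markers was 9.716 and 9.526 with LFD and 9.136 and 9.174 with HFD+As, and their part in the values of Vwf and Thbd was not tested.

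Set side by side, the comparisons gave different balances of signs. With arsenite on the low-fat diet 19 of the 41 members were positive. This number was 31 without LFD+As replicate 1, 28 without LFD replicate 1 and 27 with median scaling, so the balance of signs rests on single arrays and on the scaling. Of 20 complement genes 12 were positive in LFD+As against LFD (median 0.067), and of 21 coagulation genes 7 were (median -0.011), against a median of -0.011 over all clusters. Limma called 0 members and 0% of all clusters. At an unadjusted p under 0.05 there were 2 members (C8a and F11) and 558 clusters. The members were 0 without LFD+As replicate 2 and 1 without LFD+As replicate 1 or either LFD array, while the clusters were 1226 and 1161 without LFD replicate 1 and 2. Pools of the groups did not overlap for 13 members on the higher side, among them Cfb, Hc, C6 and C8a, and for 4 on the lower side (Masp1, F2, Kng1 and Proz), where 11.2% and 15.9% of all clusters did so, and 25.4% and 17.1% of the 1581 genes whose mean signal was within the interquartile range of the members (10.32 to 12.63), called genes of like signal below. Over 1 cluster per gene and the 60% of genes with the highest mean signal (11963 genes, among them 40 members, without Klkb1), 0.0251% were called higher and 0.0418% lower, and of the members 0.

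The high-fat diet without arsenite gave more positive than negative values. In HFD against LFD, 16 of 20 complement genes were positive (median 0.17) and 15 of 21 coagulation genes (median 0.043), against -0.025 over all clusters and 0.0098 over the genes of like signal. Pools did not overlap for 16 members on the higher side and 2, Masp1 and F5, on the lower, beside 17.2% and 19.2% of all clusters and 29.9% and 24.5% of the genes of like signal. Cfb had the smallest unadjusted p (0.00486). Limma called 0 members and 0% of all clusters (unadjusted p under 0.05 for 7 members and 1804 clusters). Without LFD replicate 1 these were 6 and 3804, without LFD replicate 2 they were 2 and 895, and without HFD replicate 1 they were 3 and 1740. Over the 60% of genes with the highest signal, 0.343% were called higher and 0.117% lower, and again 0 members. Leaving out HFD replicate 1 left 22 of the 41 members positive instead of 31.

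Arsenite and the high-fat diet together gave the opposite balance. Against LFD, HFD+As was negative for 15 of 20 complement genes (median -0.16) and 18 of 21 coagulation genes (median -0.16). The median over all clusters was -0.031, but -0.14 over the genes of like signal, 64.9% of which were negative. Pools did not overlap for 22 members on the lower side and for 2, Mbl1 and Mbl2, on the higher, beside 29.1% and 16.3% of all clusters and 50.2% and 20.7% of the genes of like signal. Limma called 1 member lower (2.64% of all clusters were called lower) and 0 higher, and 10 members had an unadjusted p under 0.05. Leaving out LFD replicate 1 or HFD+As replicate 1 made these 6. Over the 60% of genes with the highest signal, where 16% were called (3.59% higher and 12.4% lower), Masp1 (adjusted p = 0.0191), Cfi (adjusted p = 0.0362) and F5 (adjusted p = 0.0154) were called lower. None of these 3 calls held without either LFD array or without HFD+As replicate 1.

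Within the high-fat diet the members were nearly all on one side. HFD+As was below HFD for 19 of 20 complement genes (median -0.32) and 20 of 21 coagulation genes (median -0.25), while the median was -0.015 over all clusters and -0.14 over the genes of like signal, 72.3% of which were negative. Pools did not overlap on the lower side for 30 of the 41 members, beside 29.5% of all clusters and 47.9% of the genes of like signal, and for 0 members on the higher side. Limma called 0 members and 0% of all clusters, with 18 members and 4455 clusters at an unadjusted p under 0.05. Without HFD replicate 1 these were 7 and 1384, and without HFD+As replicate 1 they were 14 and 2705. Adjusted p for C8a, Hc, Cfi, C4b, Cfb and Hgfac lay between 0.157 and 0.164. Over the 60% of genes with the highest signal, of which 3.63% were called (0.376% higher and 3.25% lower), C8a (adjusted p = 0.0408), C4b (adjusted p = 0.0469), Hc (adjusted p = 0.0473) and Hgfac (adjusted p = 0.0481) were called lower. None of these 4 calls held without either LFD array, HFD replicate 1 or HFD+As replicate 1. This comparison shares the HFD pools with that of HFD against LFD, and the HFD+As pools with the others of that group.

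Between the arsenite groups most members were lower on the high-fat diet in the mean. HFD+As was below LFD+As for 15 of 20 complement genes (median -0.21) and 19 of 21 coagulation genes (median -0.21), against -0.0098 over all clusters and -0.17 over the genes of like signal. The 3 C1q chains, Mbl2, C8g, F12 and Thbd were positive. Pools did not overlap for 29 members on the lower side and for Mbl2 on the higher, beside 29.4% and 21.2% of all clusters and 54.1% and 16.3% of the genes of like signal. Limma called 0 members and 0% of all clusters, and 14 members and 4312 clusters had an unadjusted p under 0.05. Leaving out LFD+As replicate 2 made these 6 and 2198, and without HFD+As replicate 1 they were 9 and 2568. Over the 60% of genes with the highest signal, 10.3% were called (1.82% higher and 8.43% lower), and among them C8a, Hc, F5, C6 and Masp1 were lower with adjusted p from 0.0252 to 0.0381. None of these 5 calls held without either LFD+As array or without HFD+As replicate 1.

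The arsenite difference on the high-fat diet minus that on the low-fat diet, the interaction, was negative for 18 of 20 complement genes (median -0.35) and 20 of 21 coagulation genes (median -0.24). Over all clusters its median was 0.0023, and over the genes of like signal -0.16, with 73% of them negative. C8a had the most negative value at -0.96 (SE 0.20, adjusted p = 0.548), followed by C6 at -0.71 (SE 0.20, adjusted p = 0.548), Hc at -0.67 (SE 0.16, adjusted p = 0.548) and C4b at -0.67 (SE 0.21, adjusted p = 0.548). Mbl2 had 0.34, and C8g and F12 had 0.026 and 0.028. Limma called 0 members and 0% of all clusters, with 12 members and 2110 clusters at an unadjusted p under 0.05. Without LFD+As replicate 2 these were 5 and 1036, and without HFD replicate 1 they were 6 and 946. Without LFD replicate 1 the clusters were 3976, without LFD replicate 2 they were 1122 and without HFD+As replicate 1 they were 1372. For 11 members both arsenite pools were above both water pools on the low-fat diet and below them on the high-fat diet, as for 3.64% of all clusters, and the reverse held for 0 members and 2.86% of clusters. For 11 members both HFD pools were above both LFD pools without arsenite and below them with it, as for 3.22% of all clusters, and the reverse held for 0 members and 3.01% of clusters. The shares of these patterns among the genes of like signal were not computed.

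**Figure D3:**
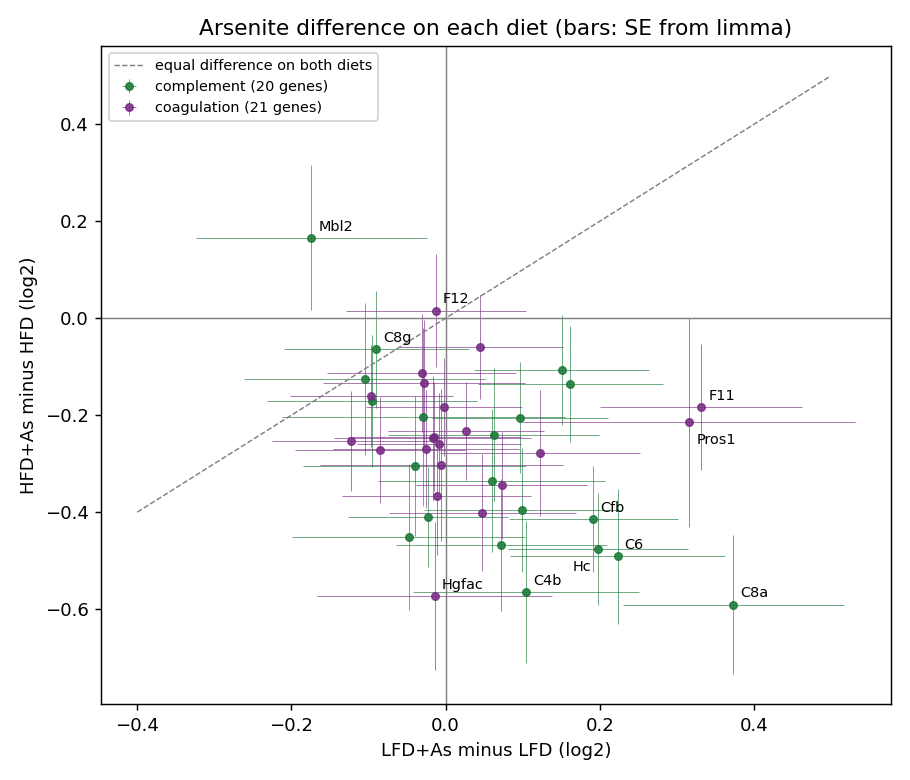
Difference between arsenite and plain water on the low-fat diet (horizontal axis, log2) and on the high-fat diet (vertical axis, log2) for 20 complement and 21 coagulation genes, with SE from limma as bars and a dashed line where both would be equal. All points but Mbl2 and F12 lie below 0 on the vertical axis, and on the horizontal axis 19 members lie above 0 and 22 below.

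The members' differences followed the genomic span of their genes. Over 40 members with a known span, the rank correlation of span with the HFD+As difference was -0.69 against LFD+As, -0.56 against LFD and -0.18 against HFD, and it was 0.41 for LFD+As against LFD and -0.39 for HFD against LFD. These points share their arrays and are given as a description. The 20 genes longer than the median span of 17907 bases had a median HFD+As difference from LFD+As of -0.32 and the 20 shorter genes one of -0.06. Against HFD these medians were -0.27 and -0.22. With each array's span trend removed, C8a stood at -0.46 against LFD+As and -0.47 against HFD, Hc at -0.36 and -0.35, and Hgfac, a short gene, at -0.27 and -0.57. In HFD+As against HFD, 19 of 20 complement genes and 18 of 20 coagulation genes were still negative (medians -0.26 and -0.17), with 0 called. None of the 12 calls made over the 60% of genes with the highest signal held with the span trend removed (0 called). In HFD+As against LFD the medians were -0.11 and -0.07. There C8a stood at -0.077 and Hc at -0.145, beside -0.22 and -0.30 before the removal.

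**Figure D4:**
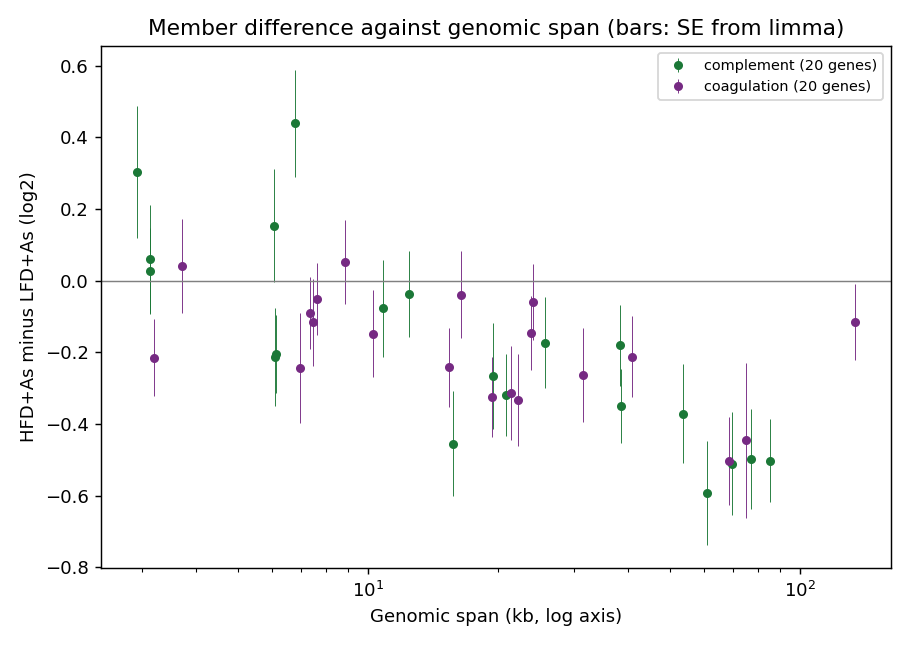
Difference between HFD+As and LFD+As (vertical axis, log2, SE from limma as bars) against the genomic span of 40 members (horizontal axis, kb, log scale). The 8 longest genes lie between -0.37 and -0.59 except Vwf at -0.12, and the 7 genes above 0 are all among the 20 shorter ones.

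Other genes of both pathways were taken from separate lists. Of 30 other complement genes 27 were measured and 0 were called by limma in any comparison. In HFD+As against HFD, 19 were negative and 8 positive (median -0.23, 8 at an unadjusted p under 0.05), and in HFD+As against LFD 21 were negative (median -0.12, 6 at an unadjusted p under 0.05). The interaction was negative for 20 and positive for 7 (median -0.21, 4 at an unadjusted p under 0.05).

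Of 31 other coagulation and fibrinolysis genes 29 were measured. In HFD+As against LFD 1 was called lower and 0 higher, beside 2.64% and 1.94% of all clusters. The called gene was Ggcx, the carboxylase that modifies all vitamin K-dependent factors. Ggcx gave 10.61 and 10.51 with LFD, 10.51 and 10.78 with LFD+As, 10.75 and 10.58 with HFD and 10.00 and 10.01 with HFD+As. Both HFD+As pools lay below the other 6, and Ggcx fell by 0.56 relative to LFD (limma SE 0.13, adjusted p = 0.0432, 2 pools in each group). This call was lost when any 1 array of LFD, LFD+As or HFD+As was left out (6 of 8 cases, adjusted p up to 0.212), over all clusters (adjusted p = 0.112) and with the span trend removed (adjusted p = 0.0551). Ggcx stood at -0.66 (SE 0.13, adjusted p = 0.15) against HFD. In that last comparison 22 of the 29 genes were negative (median -0.21), with 0 called and 9 at an unadjusted p under 0.05. The interaction was negative for 21 of the 29 (median -0.27), with 0 called and 6 at an unadjusted p under 0.05.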

How the data were processed

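Liver RNA of 8 pools was measured on Affymetrix mouse gene arrays. The authors deposited a log2 signal for each transcript cluster. The submitters' processing notes name Affymetrix Expression Console 1.0. How background was corrected and signals normalized is not given in the sources used here. The values were used as deposited. The platform annotation names 23410 of 35556 clusters (21789 with 1 symbol, 1621 with several), and a member was its 1-symbol cluster with the highest mean. Group means of all 8 arrays were fitted with limma 3.58.1 in R 4.3.3 (4 residual and 5.29 prior degrees of freedom), with Benjamini-Hochberg adjustment per comparison at 0.05. The fit was tested on simulated data. Span and start positions came from the RefSeq table of GRCm38.p6, and spans were matched for 40 members. All measured members were described: all 8 values were given for called members and for the 3 of smallest unadjusted p in each role without a call. Other genes came from fixed lists. Alternatives are in the closing section. Members, roles and lists were chosen with earlier results of these data known. The number of arrays limits the precision.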

Additional observations from a re-analysis of the deposited data

Results flagged for a closer look

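For 11 members both arsenite pools lay above both plain-water pools on the low-fat diet and below both on the high-fat diet, a pattern that 3.64% of all clusters showed, and 0 members showed the reverse (2.86% of clusters). The share of this pattern among the genes of like signal was not computed. Of those genes 25.4% had both LFD+As pools above both LFD pools (11.2% of all clusters). Both HFD+As pools lay below both HFD pools for 47.9% of them (29.5% of all clusters). The arsenite difference on the high-fat diet minus that on the low-fat diet was -0.96 for C8a, -0.71 for C6, -0.67 for Hc, -0.67 for C4b, -0.61 for Cfb, -0.52 for F11, -0.50 for C4bp, -0.40 for F9, -0.30 for Masp2, -0.30 for Mbl1 and -0.26 for Fgg.

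For 11 members, 6 of them among those above (Cfb, C4bp, Hc, C8a, F9 and Fgg), both high-fat pools lay above both low-fat pools without arsenite and below both with it, as in 3.22% of all clusters, and 0 members showed the reverse (3.01% of clusters). The remaining 5 were Hgfac at -0.56, Cfp at -0.54, Fga at -0.45, F10 at -0.42 and Fgb at -0.18. The test of this difference itself, the interaction in limma, gave adjusted p from 0.548 to 0.67 for these 16 genes, so none passed. The share of the high-fat pattern among the genes of like signal was not computed either. Of those genes 29.9% had both HFD pools above both LFD pools (17.2% of all clusters). Both HFD+As pools lay below both LFD+As pools for 54.1% of them (29.4% of all clusters).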

How the results depend on the processing

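The number of members called did not change in LFD+As against LFD, HFD against LFD and the interaction under any of the 7 planned settings other than leaving out an array, nor when any 1 array was left out (0 in all). For HFD+As against LFD, where 1 member was called, the number was 0 over all transcript clusters, with median scaling and with the span trend removed, 3 with quantile normalization and over the 60% brightest genes, and 4 with a variance trend. When 1 array was left out it was 0 in each of the 8 cases. For HFD+As against HFD and against LFD+As, where 0 were called, it was 4 and 5 over the 60% brightest genes and 0 under the other 6 settings. The cause of these changes was not tested.

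Combinations with the 60% brightest genes were chosen after seeing the data. With the span trend removed as well, 0 members were called in any comparison. With 1 array left out, the number lay between 0 and 4 against LFD, 0 and 7 against HFD, 0 and 6 against LFD+As, and 0 and 1 for the interaction. Calls over all genes moved likewise: in HFD+As against LFD, 1071 of 23410 clusters were called (453 higher, 618 lower) and 1909 of 11963 genes (430 higher, 1479 lower), but 0 of 35556 clusters. With 1 array left out, between 0 and 1107 of the 23410 clusters were called: 0 without LFD replicate 1 or HFD+As replicate 1, 3 without the other replicate of either group, 100 without either LFD+As array and 1107 without either HFD array. Quantile normalization gave 569 higher of 1152, median scaling 465 of 743 and the span correction 346 of 682.

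Replicate numbers name random sets of mice. Deviations of same-numbered pools correlated at 0.041 to 0.51 over the 6 pairs of groups, 3 of them under 0.1, so the numbers were not taken as pairs. With the replicate block F5 stayed called (adjusted p = 0.0417) and the number of members called was 1 against LFD and 0 in the other comparisons. Over the 60% brightest genes the block left 2 members called against LFD, 0 against HFD and 3 against LFD+As. It gave 559 calls over all clusters in HFD+As against HFD, instead of 0.

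With 2 pools per group, the median SE of a difference was 0.13, which limits what can be called, and whether a dim signal is above background is unknown.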

Other observations

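Acute phase genes, many of them driven by the same cytokines as fibrinogen and C4bp, were measured beside the members. All 21 measured acute phase genes were positive in HFD against LFD (median 0.70) and in LFD+As against LFD (median 0.42), with 0 called by limma in either (17 and 10 at an unadjusted p under 0.05), 2 comparisons that share the LFD pools. In HFD+As against LFD, 18 were positive (median 0.38) and 3 were called higher, beside 1.94% of all clusters. The 3 were Lcn2 at 2.15 (SE 0.43, adjusted p = 0.0348), Saa3 at 1.93 (SE 0.42, adjusted p = 0.0387) and Hamp at 1.52 (SE 0.34, adjusted p = 0.0427). The calls of Lcn2 and Saa3 were lost without any 1 array of LFD, LFD+As or HFD+As, and that of Hamp without any 1 of the 8 arrays. Against HFD, 20 of the 21 were negative in HFD+As (median -0.40, 0 called, 8 at an unadjusted p under 0.05). Their interaction was negative for 20 of the 21 too (median -0.64, 0 called, 16 at an unadjusted p under 0.05).

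Of 20 transcription factor and cytokine signalling genes that act on liver genes 16 were measured. In HFD+As against LFD 9 were negative and 7 positive (median -0.22). Limma called 3 of them lower in this comparison, beside 2.64% of all clusters. These were the pioneer factor gene Foxa1 at -0.79 (SE 0.12, adjusted p = 0.0306), the coactivator gene Ppargc1a at -0.85 (SE 0.18, adjusted p = 0.0371) and the glucocorticoid receptor gene Nr3c1 at -0.48 (SE 0.11, adjusted p = 0.0436). In the other 5 comparisons 0 were called (3 to 6 at an unadjusted p under 0.05). The calls of Foxa1 and Ppargc1a were lost without any 1 array of LFD, LFD+As or HFD+As, and that of Nr3c1 without any 1 of the 8. With the span trend removed, those of Ppargc1a (limma adjusted p = 0.0536) and Nr3c1 (adjusted p = 0.127) were lost and that of Foxa1 held. Of 9 neutrophil markers 6 were positive and 3 negative in HFD+As against LFD (median 0.31). Limma called 3 of them higher, S100a8 at 0.92, S100a9 at 0.81 and Retnlg at 0.69, beside 1.94% of all clusters. These calls too were lost without any 1 array of LFD, LFD+As or HFD+As. With the span trend removed, that of Retnlg was lost as well (limma adjusted p = 0.0548), while those of S100a8 and S100a9 held. None of the calls of other genes named here or beside the members held over all 35556 clusters. Of the markers of lymphocytes (8 measured), stellate cells (11), adipocytes (8), platelets (8), cholangiocytes (5) and hepatocytes (11), 0 were called by limma in any comparison, with 0 to 3 at an unadjusted p under 0.05 in each list.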
